A study of Mus musculus with 4 samples.

Results

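Each gene on the arrays was described by 1 number: the log2 ratio of food-deprived over control RNA in the maternal liver minus the same ratio in the fetal liver. The account covers all gene probes of all 4 arrays, 41174 probes under 27670 names, and 15144 of these genes had a probe well above background in both livers and could be compared. The mice were C57BL/6J, an inbred laboratory strain. The control groups were control fetuses and control mothers, the treated groups were fetuses of food-deprived mothers and the food-deprived mothers themselves, and every group was liver total RNA pooled from 5 to 10 biological replicates. Each liver was read on 2 two-colour arrays, with food-deprived RNA in Cy5 on the first and in Cy3 on the second, so each difference was taken between arrays of the same dye orientation. The labels do not settle whether both arrays of a liver carry the same pools. They were counted as 1 pool per condition, no significance test was made, and the spread between arrays was taken as technical. How long food was withheld, the gestational stage, the mothers' age and the fetuses' sex are not stated in the labels used.

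A liver without food from the gut turns to stored fat. Fatty acids released by adipose tissue activate the nuclear receptor PPARA, which induces enzymes of fatty acid oxidation and lipid droplet proteins, while glucagon and glucocorticoids raise glucose production from amino acids and low insulin quiets the lipogenic factor SREBP-1c. The fetal liver is fed through the placenta, mainly with glucose and amino acids, is a site of blood formation, and acquires many enzymes of bile acid, drug and methionine metabolism only around birth and after it. The comparison asks which genes respond in the mother but not in the fetus, in the fetus but not in the mother, or in opposite directions.

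The share of gene spots well above background ranged from 53.2% to 69.7% over arrays and dyes, and 0 were saturated. All 12 hepatocyte markers on the arrays were measured in both livers. The albumin gene Alb had a log2 level of 15.8 in control fetuses and 15.6 in control mothers. The fetal markers Afp and Igf2 stood at 15.5 and 14.9 in the control fetus and at 8.64 and 7.06 in the control mother. The SD of a mean difference, from the disagreement of the dye orientations over genes, was 0.09 on the log2 scale and was taken as technical. The differences of the first arrays and of the second arrays correlated at 0.90 across genes, which are not independent replicates. In bulk liver, fewer cells of a type and less RNA per cell cannot be told apart.

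A gene was called in a liver when the mean of its arrays reached 2-fold, a log2 ratio of 1, and both of its arrays moved that way by 1.5-fold or more. The difference between livers was called by the same rule. "Rose" and "fell" are used only for changes past it, and pairs of values are log2 ratios on the first and the second array. A gene counted as changed in 1 liver only when it was called there, its mean in the other liver was under 1.5-fold, and the difference was called. It counted as opposite when it was called in 1 liver, lay at least 1.5-fold the other way in the other liver on the mean with both arrays on that side, and the difference was called.

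Promoter sequence is shown for 4 genes whose difference the account turns on, from RefSeq on GRCm38.p6, from 100 bases before to 20 bases after the first listed gene start. Clstn3 and Elovl5 lay on opposite sides of 0 in the livers, below it in the fetus and above it in the mother, and capitals mark the cyclic AMP response element (CRE, TGACGTCA, searched on both strands).
Clstn3, chr6:124464765-124464884, minus strand: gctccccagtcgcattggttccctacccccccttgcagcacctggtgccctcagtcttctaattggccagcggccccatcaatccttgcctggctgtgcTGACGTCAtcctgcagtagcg
Elovl5, chr9:77917265-77917384, plus strand: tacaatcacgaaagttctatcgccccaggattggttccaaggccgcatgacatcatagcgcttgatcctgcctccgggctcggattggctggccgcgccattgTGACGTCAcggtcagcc
Slco1b2 rose in the fetus and lay below 0 in the mother, and Bhmt rose in the fetus only. Capitals mark the core hexamer of nuclear receptor elements (AGGTCA or its reverse complement TGACCT).
Slco1b2, chr6:141629418-141629537, plus strand: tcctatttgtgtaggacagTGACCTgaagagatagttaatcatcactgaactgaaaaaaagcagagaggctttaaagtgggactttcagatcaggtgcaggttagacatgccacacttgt
Bhmt, chr13:93637739-93637858, minus strand: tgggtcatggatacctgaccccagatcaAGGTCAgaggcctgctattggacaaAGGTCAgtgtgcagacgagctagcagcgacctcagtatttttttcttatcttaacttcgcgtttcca
The CRE begins 1 base before the start of Clstn3 and 3 bases after that of Elovl5, and the windows of 300 bases around gene starts hold it in 1.88% of 27025 genes with a listed promoter and in 3.06% of the measured ones. The hexamer was found in 16% of all windows and 12.9% of those of measured genes, in 2 of 6 windows of genes up in the fetus and down in the mother, and in 5 of the 10 windows of genes that rose in the fetus only. The CCAAT letters, on either strand, were in 9 of those 10 windows, against 38.3% of measured genes. Of 9 motifs searched, these are the ones shown after their counts were seen, and a match describes letters, not a bound site.

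Of 15144 genes, 189 had a higher maternal than fetal response (1.25%) and 273 a lower one (1.8%), 462 in all (3.05%). The difference reached 4-fold for 52. With median centring of each array in place of loess, the calls were 65 higher and 347 lower, so the share of higher ones among the called was 15.8% against 40.9%. That setting shifted the median difference from -0.02 to -0.11, and for genes with a mean log2 intensity of 10 and over from -0.04 to -0.31. Differences are therefore relative to the bulk of genes of the same brightness, and small positive ones can turn negative with the scaling.

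The maternal liver moved more genes. It had 241 calls up (1.59%) and 289 down (1.91%), and the fetal liver 67 up (0.442%) and 46 down (0.304%). Across genes the SD of the mean log2 ratio was 0.41 in the mother and 0.24 in the fetus. The maternal and fetal mean ratios correlated at 0.37 across genes, and at 0.41 and 0.39 within each dye orientation, against 0.24 and 0.27 between arrays of opposite orientation. By class, 113 genes rose in the mother only (0.746%) and 150 fell in the mother only (0.99%). In the fetus only, 13 rose (0.0858%) and 10 fell (0.066%). The counts of the mother depend on the processing: median centring gave 16 up and 49 down, and the scanner software's ratios 273 and 422. Both livers moved the same way past the rule for 51 genes, 29 up and 22 down, and 11 genes were opposite (0.0726%). A further 241 were called in 1 liver and did not meet the limits of any class.

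**Figure D1:**
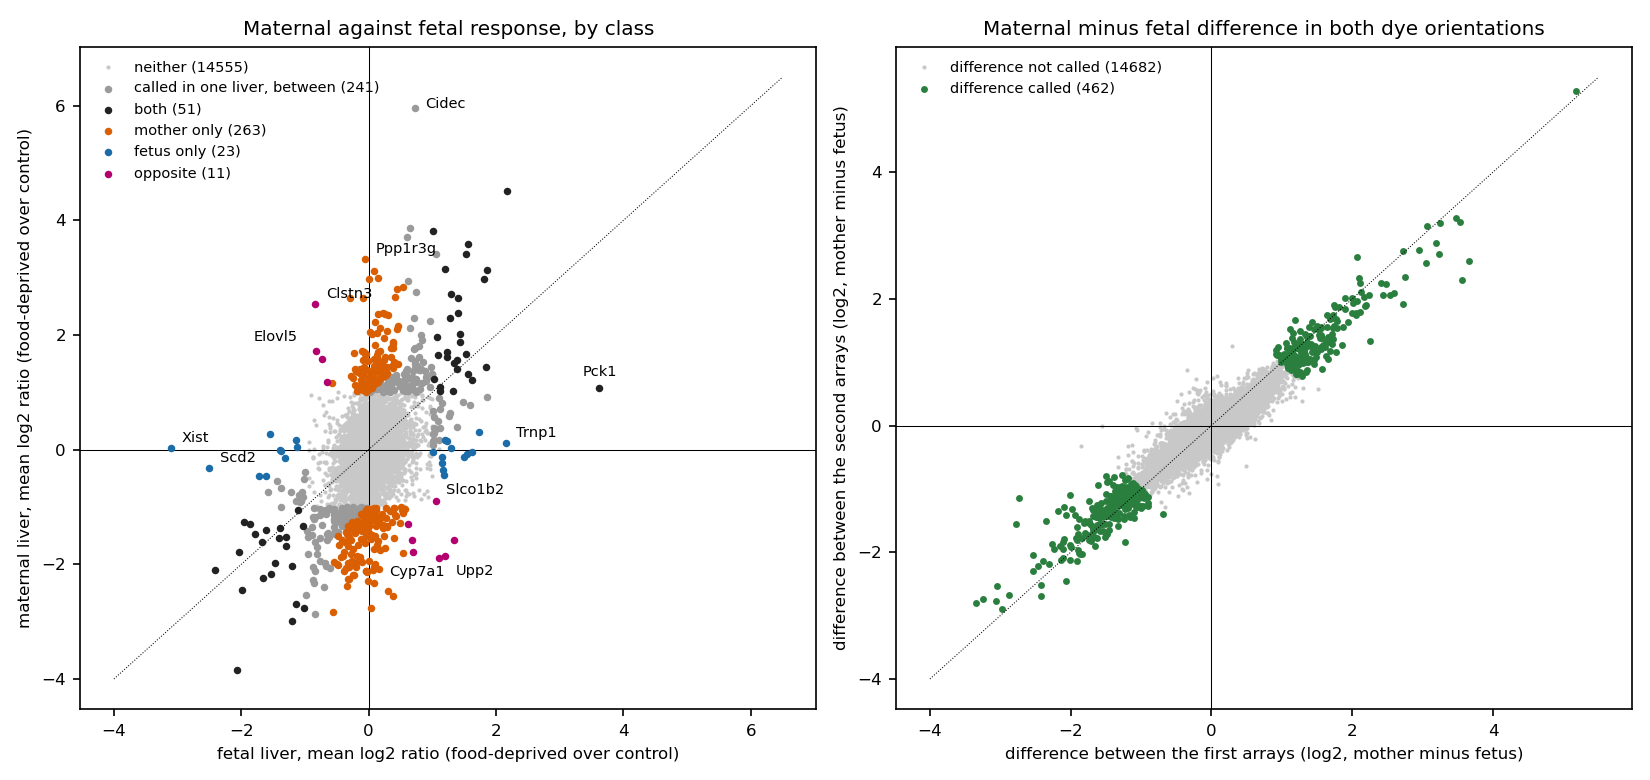
Left, mean log2 ratio of food-deprived over control in the mother (y axis) against the fetus (x axis), 1 point per measured gene, coloured by class with the number of genes in the key. Right, the maternal minus fetal difference between the second arrays (y axis) against that between the first arrays (x axis), both in log2, with a dotted line of equality. The 462 called genes lie on the same side of 0 on both axes, as the call requires. Of all 15144 measured genes, 0 had differences at least 1.5-fold in opposite directions between the axes.

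Of the 11 opposite genes 10 carry a gene symbol, and 7 of these were up in the fetus and down in the mother. Of all 11, 3 passed the 2-fold rule in both livers. Upp2, the uridine phosphorylase of pyrimidine salvage, had log2 ratios of 1.20 and 1.21 in the fetus and of -2.14 and -1.59 in the mother, a maternal minus fetal difference of -3.07. Inmt, an N-methyltransferase of indole amines, had 1.25 and 0.96 in the fetus and -1.99 and -1.77 in the mother. Lrtm1, a leucine-rich repeat membrane protein, had 1.26 and 1.41 against -1.80 and -1.35. All 3 rose in the fetus and fell in the mother, and the rule of the class leaves no overlap between the livers' arrays.

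Another 4 genes shared that direction. Slco1b2, the transporter that takes bile acids and other organic anions from blood into hepatocytes, rose in the fetus (0.90 and 1.21) and lay below 0 in the mother (-0.96 and -0.81). Leap2, a secreted peptide that blocks the ghrelin receptor, fell in the mother (-1.74 and -1.82) and stood at 0.68 and 0.70 in the fetus. The ghrelin system signals hunger, and this hormone gene was bright in both livers, with log2 levels of 11.1 in control fetuses and 12.1 in control mothers. Cyp2f2, a cytochrome P450 of periportal hepatocytes, fell in the mother (-1.50 and -1.66) and stood at 0.56 and 0.79 in the fetus. Hnf4aos, an RNA listed antisense to the hepatocyte factor gene Hnf4a, fell in the mother (-1.64 and -0.97) against 0.71 and 0.54 in the fetus. Its fetal probe was dim, with a mean log2 intensity of 6.96, and Hnf4a itself had a difference of -0.02.

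In the other direction lay 4 genes, 3 of them with a symbol. Clstn3, calsyntenin 3, whose locus also encodes a lipid droplet protein of fat tissue, rose in the mother (2.88 and 2.19) and stood at -0.65 and -1.02 in the fetus, the largest difference of the class at 3.37. Which product of the locus the probe reads was not tested. Elovl5, the elongase of polyunsaturated fatty acids, rose in the mother (1.90 and 1.54) against -0.85 and -0.80 in the fetus, and its 2 probes agreed in sign. Cidea, a protein that enlarges lipid droplets, rose in the mother (1.86 and 1.32) against -0.86 and -0.60 in the fetus. Cidea was near the dim end in both livers, with mean log2 intensities of 7.57 and 7.80. The 11 opposite genes kept opposite signs in the livers under each of the 12 alternative settings, and 4 of them kept the class under median centring.

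**Figure D2:**
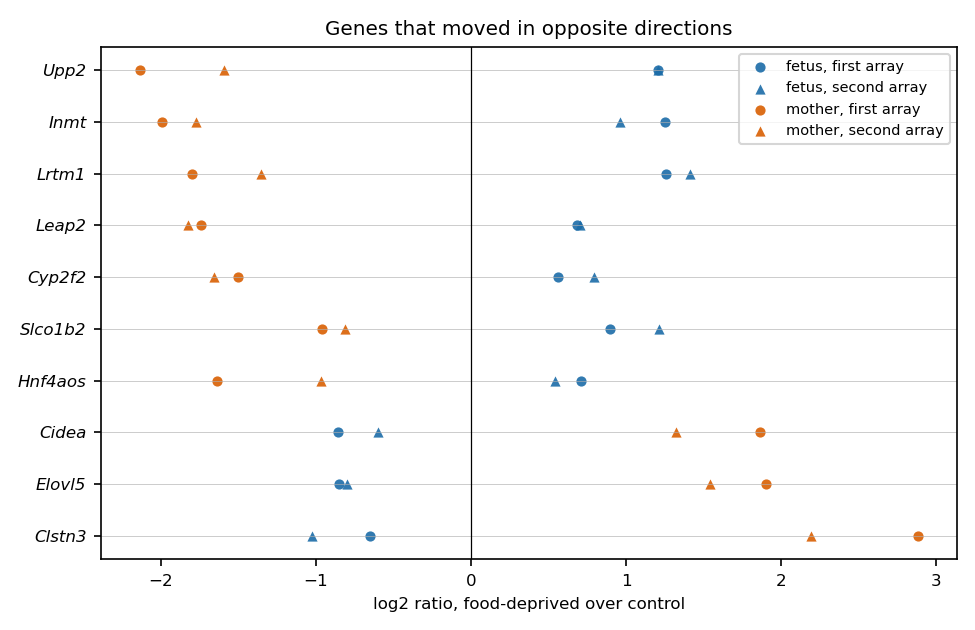
Food-deprived over control log2 ratios (x axis) on each of the 4 arrays for the 10 opposite genes with a symbol, ordered by the maternal minus fetal difference from Upp2 (-3.07) to Clstn3 (3.37); blue is the fetus, orange the mother, circles the first and triangles the second array. For each gene both fetal points lie on one side of 0 and both maternal points on the other, as the class requires.

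With no 2-fold call asked for, 28 of the 15144 genes lay at least 1.5-fold in opposite directions on the means, with all 4 arrays on their side. Of these, 18 were up in the fetus and down in the mother, and 10 the other way. These limits already put the mean difference past 2-fold, and the difference was called for all 28. Among those up in the fetus were Dbp, a transcription factor that carries clock rhythms to liver genes (0.97 and 0.86 in the fetus, -0.78 and -0.68 in the mother), the folate enzyme gene Aldh1l1 (0.71 and 0.71, -0.90 and -0.71) and Uroc1 of histidine breakdown (0.55 and 0.64, -0.76 and -0.74). Tsc22d3, the glucocorticoid-induced leucine zipper gene, had 0.52 and 0.83 in the fetus and -0.82 and -0.36 in the mother. Those up in the mother included Acacb, the acetyl-CoA carboxylase that restrains mitochondrial fat uptake (-0.92 and -0.62 in the fetus, 0.76 and 1.05 in the mother), the tubulin gene Tubb2a (-0.83 and -0.99, 1.06 and 0.86) and the chaperone gene Hsp90aa1 (-0.77 and -0.63, 0.48 and 0.74). These genes were picked from the 28 after their values were seen. The count depends on the processing. On the means alone, without asking for the side of each array, it was again 28, but 52 under median centring and 84 with the scanner software's ratios.

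The genes of the opposite class higher in the fetus and lower in the mother were ones that the control mother expressed more strongly than the control fetus. On levels of the same probe, this held for 7 of the 7 opposite genes of that direction. It did not hold for Akr1b7 of the wider set, with control levels of 13.5 in fetuses and 9.94 in mothers. Upp2 had a control level of 7.80 in fetuses and 11.4 in mothers, and the pairs were, for Lrtm1, 7.97 and 10.5 and, for Slco1b2, 13.1 and 14.7. Over all 273 genes with a lower maternal response, 220 had the higher control level in the mother (80.6%, against 56.2% of measured genes), and over the 189 with a higher one 108 did (57.1%). These levels and the difference share the control RNA, the levels were set on a common scale between arrays, and this count was chosen after the values were seen.

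Among genes that rose in the mother only, the largest difference was that of Ppp1r3g, a subunit that brings protein phosphatase 1 to glycogen, at 3.38 (-0.03 and -0.09 in the fetus, 3.45 and 3.19 in the mother). Ehhadh, the bifunctional enzyme of peroxisomal fatty acid oxidation, had 0.14 and -0.12 against 3.38 and 2.59. The lipid droplet coat gene Plin2 stood at -0.37 and -0.21 in the fetus and rose in the mother (3.19 and 2.09), and Plin4 had 0.58 and 0.50 against 3.12 and 2.56. Signals of energy balance were among them. Fgf21, a hormone the fasted liver secretes, had -0.15 and -0.04 in the fetus against 2.58 and 2.71, and the leptin receptor gene Lepr had 0.58 and 0.33 against 3.06 and 2.56. The fetal probe of Fgf21 was close to background, at a mean log2 intensity of 7.06, where a ratio is drawn toward 0, whereas Ehhadh, Plin2 and the stress gene Gadd45g (fetus -0.01 and 0.29, mother 2.94 and 3.05) were bright in the fetus, at 11.4, 13.5 and 11.5. With the scanner software's ratios the fetal means of Lepr and Plin4 were 0.70 and 0.74, past 1.5-fold, so both left this class. The other genes of the 10 were Cgref1, Gpcpd1 and Ly6d, with differences of 3.04, 2.24 and 2.21.

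Among genes that fell in the mother only, the apolipoprotein L genes Apol7a and Apol7c had differences of -2.94 and -2.77. As means over the 2 probes of each gene these were -2.23 and -2.04. Cyp7a1, the hydroxylase that limits the rate of bile acid formation, fell in the mother (-2.11 and -2.06) and stood at 0.19 and 0.12 in the fetus, where it had a mean log2 intensity of 10.9. Its difference of -2.24 was -1.73 as the mean over its 2 probes. Tk1, the thymidine kinase of dividing cells, fell in the mother (-2.58 and -2.08) and had -0.05 and 0.22 in the fetus. Limd2 had a difference of -2.13, which was -1.11 as the mean over its 2 probes. Cyp26a1, which breaks down retinoic acid, fell in the mother (-3.0 and -2.51) with 0.05 and 0.02 in the fetus, and Cyp2g1 fell with -2.66 and -1.53 against 0.12 and 0.01. The fetal probes of both were near background, at 6.70 and 6.75, so their fetal values say little. The remaining genes of the 10 were Aox3, Fam47e and Akr1c14, with differences between -2.28 and -2.10.

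The 13 genes that rose in the fetus only included 3 enzyme genes of methionine, homocysteine and glycine metabolism, grouped here after their values were seen. Cth, which makes cysteine from cystathionine, rose in the fetus (1.62 and 1.62) and had -0.07 and 0.01 in the mother. Bhmt, which remethylates homocysteine with betaine, rose with 1.35 and 1.75 against -0.29 and 0.13, and Gnmt, the glycine N-methyltransferase, with 1.08 and 1.23 against -0.03 and -0.24. These genes were bright in the mother, with control levels of 13.3, 14.1 and 15.2. In the fetus their levels went from 11.9 to 13.5, from 12.6 to 14.2 and from 13.1 to 14.3, so those of Cth and Bhmt reached the maternal ones. Gpt, the alanine aminotransferase, rose from 8.55 to 10.1 in the fetus (1.61 and 1.39) and had -0.10 and -0.17 in the mother, where its control level was 13.1.

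Further fetal rises were those of the cytochrome P450 gene Cyp3a25 (1.69 and 1.77, against 0.27 and 0.36 in the mother), the ethanol-metabolising Cyp2e1 (1.32 and 1.06, against 0.37 and -0.03) and the peroxisomal phytanoyl-CoA hydroxylase gene Phyh (1.18 and 1.27, against 0.28 and 0.01). The clock-controlled factor gene Tef rose with 1.24 and 1.12 against -0.50 and -0.39, but its difference of -1.63 was -0.82 as the mean over its 2 probes. Dcxr, a xylulose reductase, had a difference of -1.53, which was -1.10 as the mean over its 3 probes, and with that mean it left the class. For Trnp1 (2.37 and 1.93 in the fetus), Kifc5b and Glod5 the maternal probe was dim, at mean log2 intensities of 6.90, 6.86 and 6.69. With the scanner software's own ratios the maternal means of Kifc5b and Glod5 were -1.34 and 1.11, so the maternal side of these is not settled.

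Of the genes that fell in the fetus only, Scd2, a stearoyl-CoA desaturase of developing tissues, had -2.44 and -2.57 in the fetus against -0.33 and -0.32 in the mother. Its level was 14.6 in the control fetus and 8.05 in the control mother. The maternal probe of Scd2 was dim, at a mean log2 intensity of 7.70. With the scanner software's ratios its maternal mean was -0.73, past 1.5-fold, so it left the class. Fads2, the delta-6 desaturase, fell with -1.33 and -0.92 against -0.21 and 0.30, and Abhd5, the activator of adipose triglyceride lipase, with -1.44 and -1.18 against -0.15 and -0.14. The immediate early gene Egr1 fell in the fetus (-1.40 and -1.69) against 0.36 and 0.18, the complement regulator gene C4bp (-1.41 and -1.35) against 0.21 and -0.25, and the chaperone gene Hsph1 (-0.98 and -1.31) against 0.42 and -0.06. Pnpla3 and Akr1c18 fell in the fetus, but their maternal probes were dim and the food-deprived mother was not well above background on both arrays for Pnpla3 and on 1 for Akr1c18. With the scanner software's ratios the maternal means were -3.39 and -2.24, and the difference of Akr1c18 turned from 1.15 to -0.20.

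Xist, the RNA of the inactive X chromosome in female cells, had the largest difference of the class, 3.13. It had -3.58 and -2.62 in the fetus, where the food-deprived pool was not well above background, a fall of at least 6.89-fold, against 0.08 and -0.03 in the mother. The bound sets the mean level of the control pool against the lowest level well above background on each array. The mean difference over its 4 probes was 1.54. The sex of the pooled fetuses is not given, and the part of this in other fetal values was not tested. The X-linked Eif2s3x had -0.29 and -0.39 in the fetus and 0.25 and 0.11 in the mother, a difference of 0.52 that was not called.

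**Figure D3:**
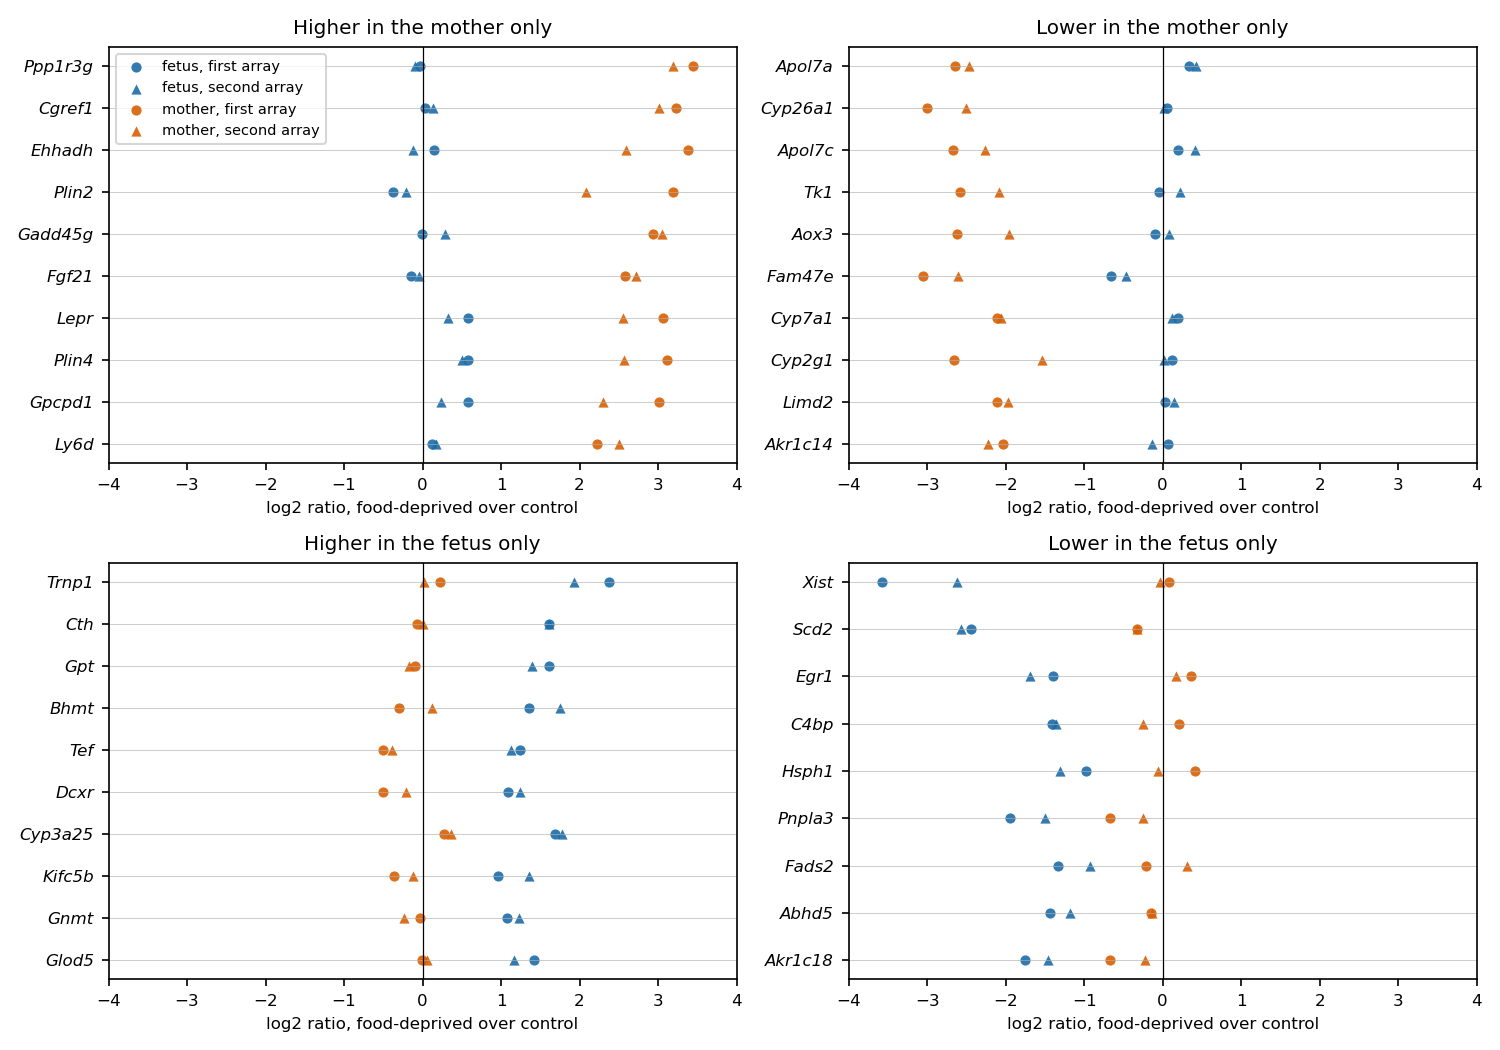
Food-deprived over control log2 ratios (x axis) on the 4 arrays for the genes with the largest differences among those changed in 1 liver only, up to 10 per panel; blue is the fetus, orange the mother, circles the first and triangles the second array. In the upper panels the maternal points lie beyond 1.5 in either direction while the fetal points stay between -0.66 and 0.58; in the lower panels the fetal points lie apart and the maternal ones stay between -0.68 and 0.42.

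A value near 0 is weak where a probe is dim, since background correction draws its ratio toward 0. Of the mother-only genes, 24 of 113 that rose and 28 of 150 that fell had a fetal mean log2 intensity under 8, as did 35.9% of all measured genes in the fetus. Of the fetus-only genes, 4 of 13 and 4 of 10 were that dim in the mother, as were 44.4% of all measured genes there. The other liver was at least as bright for 28 of 113, 61 of 150, 8 of 13 and 5 of 10 of these genes.

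Of the 51 genes that moved the same way in both livers, 15 had a called difference: 10 rose more and 4 fell more in the mother, and 1 rose more in the fetus. That gene was Pck1, the cytosolic phosphoenolpyruvate carboxykinase that opens gluconeogenesis, with 3.56 and 3.69 in the fetus and 1.13 and 1.00 in the mother, a difference of -2.56. Its level went from 10.6 to 14.2 in the fetus and from 14.2 to 15.3 in the mother. Among those larger in the mother, the acyl-CoA thioesterase gene Acot1 had a difference of 2.81, the fatty acid omega-hydroxylase gene Cyp4a14 one of 2.34 and the pyruvate dehydrogenase kinase gene Pdk4 one of 2.02. The translation repressor gene Eif4ebp3 differed by 1.89. Idi1, the isopentenyl diphosphate isomerase of sterol synthesis, had -1.22 and -1.20 in the fetus and -2.87 and -3.11 in the mother. Its difference of -1.78 was -1.28 as the mean over its 2 probes. With that mean, or under median centring, it was no longer called in both livers.

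Of 42 measured genes of fatty acid oxidation and PPARA targets, 17 had a higher maternal response and 0 a lower one, against 1.25% and 1.8% of all measured genes, and the median difference was 0.68 against -0.02 over all genes. Under median centring 10 were higher. The counts of the other lists are to be read against the same shares of all genes. The largest was that of the lipid droplet gene Cidec, with 0.85 and 0.60 in the fetus and 6.03 and 5.88 in the mother, a difference of 5.23. With the scanner software's ratios its fetal mean was 2.32 against 0.72, and the difference 4.34. Next came Ehhadh, Plin2, Acot1 and Fgf21. Of the members 10 changed in the mother only and 7 in both, among them Angptl4, an inhibitor of lipoprotein lipase, with 1.72 and 1.51 in the fetus and 1.30 and 1.15 in the mother. The members called in both livers were thus mainly omega-hydroxylases of the Cyp4a family with Acot1, Pdk4 and Angptl4, and those of the mother alone included peroxisomal and droplet genes. In ketone body synthesis, 1 of 7 members was called lower, Bdh2 (0.14 and 0.04 in the fetus, -2.10 and -1.90 in the mother), and the median difference was -0.02.

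Of 33 genes of glycolysis and fatty acid synthesis, 6 had a higher and 4 a lower maternal response, with a median difference of 0.23 that was -0.05 under median centring. Fasn, Scd1 and Acss2 fell in both livers without a called difference: the fatty acid synthase gene Fasn had -1.83 and -2.23 in the fetus and -1.68 and -1.88 in the mother, and Scd1 and Acss2 differed by 0.32 and 0.21. Other enzymes of the pathway did not pass the rule in both. The ATP citrate lyase gene Acly had -1.26 and -0.82 in the fetus and -0.78 and -0.71 in the mother, and the acetyl-CoA carboxylase gene Acaca had -0.82 and -0.77 against -0.27 and -0.37. The 6 higher ones were Elovl5, Scd2, Acacb, Fads2, the malic enzyme gene Me1 (-0.78 and -0.93 in the fetus, 0.78 and 0.28 in the mother) and Pnpla3, whose maternal probe was dim. The desaturase gene Fads1 and the elongase gene Elovl6 had differences of 0.17 and -0.57 that were not called. The 4 lower ones were the lipogenic regulators Thrsp (-0.72 and -0.69, -2.35 and -2.46), Srebf1 (-1.16 and -1.12, -2.71 and -2.67) and Mid1ip1, at -1.16, and the ketohexokinase gene Khk, at -1.03. Of these Srebf1 fell in both livers, Thrsp and Mid1ip1 passed the rule in the mother, and Khk in neither.

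Cholesterol synthesis and uptake had 8 of 26 members lower and 2 higher in the mother, with a median difference of -0.54. The sterol oxidase gene Msmo1 had -1.03 and -0.64 in the fetus and -3.15 and -2.59 in the mother, and the squalene epoxidase gene Sqle -0.81 and -1.16 against -2.50 and -2.59. Acat2, a thiolase of the pathway's first step, fell in the mother only (-0.25 and -0.37, -1.95 and -2.13). Other members fell alike, such as Sc5d, with a difference of 0.06 that one of its 2 probes did not share in sign, and Cyp51 at -0.39. Insig2, whose product holds the sterol sensor in the endoplasmic reticulum, was on the other side, with 0.86 and 0.38 in the fetus and 3.27 and 2.63 in the mother. On the mean over probes 5 members were called lower and the median was -0.24, and the median was -0.20 on the second arrays alone and -0.72 on the first.

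Bile acid synthesis and transport had 7 of 22 members lower and 3 higher in the mother, with a median difference of -0.64. Besides Cyp7a1 and Slco1b2, the bile salt export pump gene Abcb11 fell in the mother (-2.40 and -2.12, fetus -0.50 and -0.15), as did the uptake transporter gene Slco1a1 (-2.20 and -1.54, fetus near background) and the reductase gene Akr1d1 (-1.59 and -0.96, fetus 0.60 and 0.39). Cyp8b1, which sets the share of cholic acid, rose in the mother only (1.19 and 1.55, fetus -0.32 and -0.02). The first enzyme of the pathway and the enzyme that makes cholic acid therefore moved in different directions in the mother, and neither was called in the fetus. Under median centring, or on the second arrays alone, 1 member was higher.

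Amino acid catabolism and the urea cycle had 7 of 41 members lower and 2 higher in the mother, with a median difference of -0.59. The medians of the ratios themselves were 0.51 in the fetus and -0.08 in the mother, and 8 of 41 differences lay above 0, against 46.5% of all genes. The lower ones were Cth, Bhmt, Gnmt, Uroc1, Afmid of tryptophan breakdown (0.28 and 0.54, -1.17 and -1.11), Gls2 and Ivd. Tdo2, which opens tryptophan breakdown, and Sdsl rose in the mother only (1.61 and 1.62, 1.61 and 1.27), but the fetal control of Tdo2 was not well above background on 1 array, and its difference of 1.26 was 0.17 with the scanner software's ratios. In gluconeogenesis 2 of 19 members were lower, Pck1 and Gpt, and 1 was higher, the mitochondrial Gpt2 (-0.03 and -0.16 in the fetus, 1.70 and 1.74 in the mother). The alanine aminotransferase genes thus split, Gpt rising in the fetus only and Gpt2 in the mother only. The glucose-6-phosphatase gene G6pc rose alike in both, with a difference of 0.17.

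Among 22 glucocorticoid targets 5 were higher and 2 lower, with a median of 0.18 that was -0.08 under median centring, where 3 were higher. Igfbp1, which binds insulin-like growth factors, had 1.59 and 0.51 in the fetus and 3.66 and 3.17 in the mother, and Rgs16 and Lpin1 lay higher by 1.66 and 1.17. Tsc22d3 and Gadd45a lay lower, by -1.26 and -1.10, so members of this list went both ways. Ddit4, Angptl4 and the corticosteroid-binding globulin gene Serpina6 moved alike, with differences of -0.31, -0.40 and 0.31. The insulin and growth factor axis had 5 of 33 higher and 5 lower, and 3 lower on the second arrays alone. The higher ones were Ppp1r3g, Fgf21, Lepr, Igfbp1 and the activin subunit gene Inhbe, and the lower ones included Enho, which encodes adropin (0.18 and 0.35, -1.94 and -1.49), and the glycogen-targeting subunit gene Ppp1r3c (0.10 and -0.10, -1.78 and -2.11). Subunits that bring the same phosphatase to glycogen went both ways in the mother, Ppp1r3g up and Ppp1r3b and Ppp1r3c down, while all 3 stayed under 1.5-fold in the fetus. ATF4 targets had 1 of 26 called, Eif4ebp3, near the 3.05% of all genes.

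In the clock list 3 of 16 members were lower and 0 higher, with a median of -0.36: Dbp, Tef and Nr1d2 (1.16 and 0.80 in the fetus, 0.07 and -0.30 in the mother). The hour at which livers were taken is not stated in the labels used.

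Drug-metabolising enzymes had 13 of 56 lower and 1 higher in the mother, with a median difference of -0.54. After Inmt, Aox3 and Cyp2f2 the largest were the glutathione transferase gene Gsta3 (-0.06 and -0.44, -1.90 and -2.46) and the sulfotransferase gene Sult1b1 (0.65 and 0.44, -1.15 and -1.07). The higher one was Nnmt, the nicotinamide N-methyltransferase, which rose in the mother only (-0.01 and -0.13, 1.54 and 1.30), with a fetal probe near background at 6.99. Por, which passes electrons to P450 enzymes, rose in both with a difference of 0.39. Of 28 NRF2 targets 2 were higher and 2 lower.

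Of 19 heat shock and cold-inducible genes 4 were higher in the mother and 0 lower, with a median of 0.37. Hspa8, the constitutive Hsp70, rose in the mother only (0.81 and 1.51, fetus -0.92 and -0.24). With Hsph1 and Hsp90aa1 it lay on opposite sides of 0 in the mean of the livers, as did 40.9% of all measured genes. The maternal arrays of Hsph1 lay on both sides of 0, at 0.42 and -0.06. The cold-inducible Rbm3 lay higher (0.95 and 0.99, 2.22 and 2.29), while Cirbp rose in both with a difference of -0.40. Under median centring 1 of these 4 calls was left and the list median was 0.08. Of 18 chaperones of the endoplasmic reticulum 2 were lower, Sdf2l1 (-0.52 and -0.48, -2.05 and -1.93) and Edem1, with a median of -0.50.

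Of 45 cell cycle genes 5 were lower and 0 higher, against 1.8% and 1.25% of all genes, all of them falls in the mother only: Tk1, Cdc20, Birc5, Ccnb2 and Mcm6. Cdc20, which activates the anaphase complex, had -0.33 and -0.39 in the fetus and -2.43 and -1.68 in the mother. The median was -0.18, and with the scanner software's ratios, which do not draw dim probes toward 0, it was -1.53 with 25 members lower. With the stained spots corrected 9 were lower, and on the first arrays alone 10. In the lipoprotein list 2 of 27 were higher and 2 lower, led by the apolipoprotein gene Apoa4 (0.65 and 0.64 in the fetus, 3.89 and 3.84 in the mother), and Apoa5 rose in both with a difference of -0.24. Acute phase genes had 2 of 28 lower, Saa4 (0.58 and 0.20, -1.51 and -1.59) and Hamp2, the latter dim in the fetus at 6.74, and the 35 interferon genes 1, Psmb9, near the 1.8% of all genes, with a median of -0.58 and 5 differences above 0. No imprinted gene (15) and no DNA or histone methylation enzyme (24) had a called difference, with medians of 0.02 and 0.08, and their widest differences were 0.54 and -0.88.

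Markers of other cells of the liver included the list with the lowest median of all. Of 22 Kupffer cell markers 3 were lower and 0 higher in the mother, 3 lay above 0, and the median was -0.65. Under median centring 6 were lower. The medians of the ratios were 0.09 in the fetus and -0.51 in the mother. Clec4f, specific to Kupffer cells, had -0.07 and -0.24 in the fetus and -0.74 and -1.0 in the mother, and Cd5l had 0.03 and 0.03 against -1.01 and -1.05, while the lipopolysaccharide receptor gene Cd14 went the other way (0.33 and 0.23, 1.19 and 1.02). The part of this in the interferon and acute phase values was not tested. The 25 erythroid markers had a median of 0.21, with ratios of -0.28 in the fetus and -0.08 in the mother, and 1 called in each direction, Epb41 and Car1. That median was -0.03 under median centring. Of the other cell type lists, the 22 endothelial genes had a median of -0.23 and 0 calls, the 21 stellate cell and fibroblast genes 1 call, the collagen gene Col3a1 (-0.42 and -0.41, -1.42 and -1.72), the 12 bile duct and 14 lymphocyte genes 0 calls each, the 8 granulocyte and monocyte genes 1, Ly6c1 (0.01 and 0.19, -1.54 and -1.48), the 11 megakaryocyte and mast cell genes 1, Vwf (0.01 and 0.26, 2.07 and 2.00), which endothelial cells also express, and the 6 pancreas and gut genes 2, Fabp2 and Cela3b. The 2 measured placental markers had differences of -0.08 and -0.06. Hepatocyte and fetal hepatocyte markers had 0 calls and medians of -0.21 and -0.20.

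**Figure D4:**
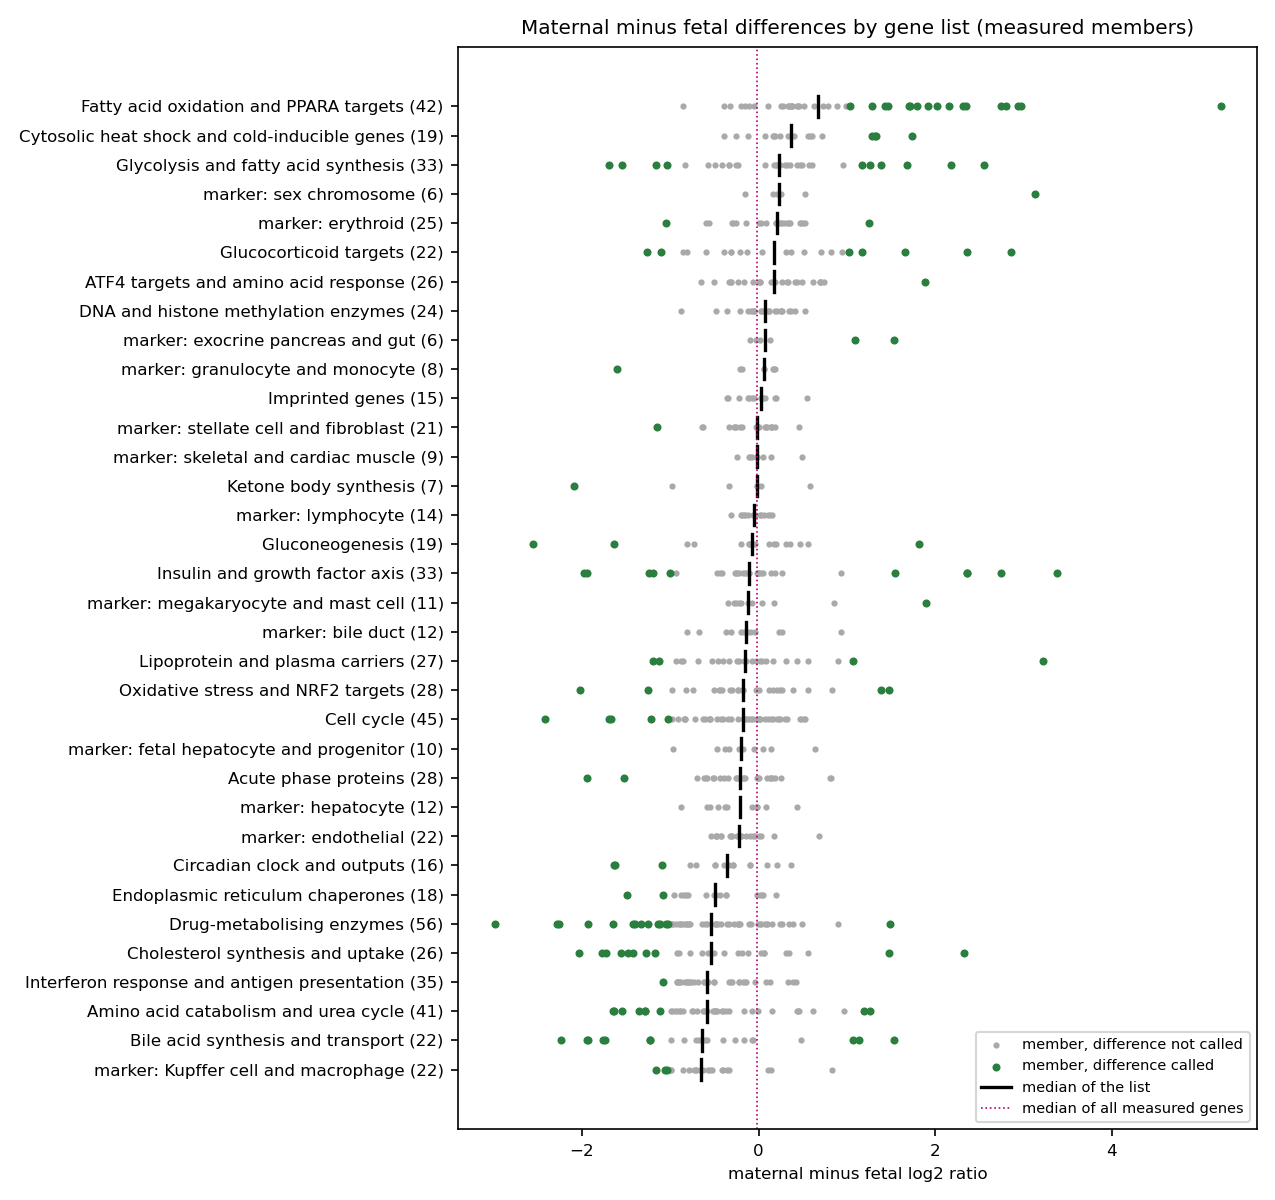
Maternal minus fetal log2 ratio (x axis) of each measured member of the gene lists with 5 or more measured members, in order of the list median; the number of members stands in brackets, green points are called differences, black bars list medians, and the dotted line the median of all measured genes. Fatty acid oxidation has the highest median (0.68) and the Kupffer cell markers the lowest (-0.65).

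Some genes called in 1 liver could not be compared, because the other liver's probe was dim or its spot was flagged as an outlier. Of 2329 genes measured in the fetus only, 17 rose and 2 fell (0.816%), and of 534 measured in the mother only, 5 rose and 14 fell (3.558%). These shares were near those of the genes measured in both livers, of which 0.746% were called in the fetus and 3.5% in the mother. The transporter gene Slco4c1 rose in the fetus (1.90 and 1.69) and Krt20, a keratin, fell (-1.63 and -1.61), both with a dim maternal probe. In the mother the organic anion transporter gene Slc22a7 fell (-1.76 and -1.70), as did Cyp1a2 (-1.34 and -1.32), with dim fetal probes. For the tyrosine aminotransferase gene Tat (2.23 and 1.77 in the fetus) and the lipid droplet gene Plin5 (1.45 and 1.86) 1 maternal spot was flagged, and the other read 1.5 and 2.81. These genes are in no class above.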

How the data were processed

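The 4 two-colour arrays, all on 1 slide, set food-deprived against control liver RNA, of fetuses on 2 and of mothers on 2. Per the file headers, the deposited scanner files hold intensity values of each spot and its local background on a linear scale, and a log10 ratio, red over green, from the scanner software's background subtraction and dye normalisation. The software was Agilent's Feature Extraction, of version 9.5.1.1 in the headers but 9.5.3.1 in the submitters' processing notes. The deposited series table holds a signed score: in size it is the linear red over green ratio, within 0.0051 of that from the scanner signals, and what its sign means is not stated. Its column medians are -0.92, 0.94, -0.88 and 0.88. Its sizes were used as an alternative.

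Intensities were corrected with normexp (offset 50) and normalised within arrays by loess in limma 3.58.1 (R 4.3.3), control spots having weight 0, then turned to food-deprived over control by the dyes in the labels. Spots flagged as outliers (215 to 257 per array) and control spots were dropped, and spots of a probe averaged. A probe was measured in a liver when the control or the food-deprived channel was well above background on both arrays. The same probe, the brightest measured in both livers, stood for a gene. Log2 levels came from the same values after Aquantile scaling between arrays. Of 41174 probes, 22944 were named by accession in RefSeq (GRCm38.p6), 3108 by a unique synonym and 15122 as in the files. On the second array of each liver a few stained spots inflated what normexp adds to dim spots (75.9 to 175.9, elsewhere 49.2 to 58.2), so dim ratios shrink more there.

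The named genes are the 10 largest differences of each class changed in 1 liver only, all opposite genes with a symbol, the 6 largest of those called in both, and up to 5 called members per list with members called in both. Other genes were named after their values were seen. Members, lists and motifs were chosen with earlier results of these data known. The classes were checked on simulated data. Changes were added there only to probes above a signal limit on the first fetal array, over an even background. Changes in probes dim on that array, and the effect of stained spots, were therefore not covered. The number of arrays limits the precision.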

Additional observations from a re-analysis of the deposited data

Results flagged for a closer look

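The 10 opposite genes with a symbol were flagged because they met the rule of the opposite class. That rule itself requires both arrays of one liver on one side and both arrays of the other liver on the opposite side. This arrangement is therefore set by the selection and is not a separate observation. With no 2-fold call asked for, 28 measured genes showed it at 1.5-fold or more on the means. The maternal minus fetal differences were -3.07 for Upp2, -2.99 for Inmt, -2.91 for Lrtm1, -2.47 for Leap2, -2.26 for Cyp2f2, -1.94 for Slco1b2 and -1.93 for Hnf4aos, and 2.32 for Cidea, 2.55 for Elovl5 and 3.37 for Clstn3. Since the arrays were counted as 1 pool per condition and liver, the difference was not tested.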

How the results depend on the processing

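Counts are given in the order of higher, lower, up in the mother only, down in the mother only, up in the fetus only, down in the fetus only and opposite. Against 189, 273, 113, 150, 13, 10 and 11, the scanner software's log ratios gave 478, 703, 273, 422, 33, 22 and 44, and the ratios deposited as series values gave 478, 697, 275, 419, 34, 23 and 43. Median centring gave 65 higher, 16 up and 49 down in the mother only, 4 down in the fetus only and 6 opposite, with 347 lower, of which 242 are among the 273, and 11 up in the fetus only. Without the filter on dim probes 21 genes were up in the fetus only. Leaving out 1 dye orientation gave 160 to 221, 262 to 320, 93 to 138, 138 to 174, 14 to 18, 10 to 10 and 14 to 15. The offset of 16, the corrected stained spots, the stricter signal filter, the mean over probes, the crossed pairing and the kept outlier spots left these 7 counts within 1.5 times. The difference of Akr1c18 turned to -0.20 with the scanner ratios (-0.1985) and the series table (-0.2004). Chosen after seeing the data, the same settings were run on calls in 1 liver only where the other was not measured (38), which were 226, 227 and 20 with scanner ratios, series table and median centring and 24 with outlier spots kept, and 33 to 41 leaving out 1 orientation. No paired analysis was possible because a replicate block needs a test over samples, and none was made. The differences themselves are taken within a dye orientation, and crossing the orientations gave 187 higher and 269 lower. The cause of these changes was not tested. Signal over background limits what can be said of dim genes in either liver.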
